A study of Sus scrofa with 36 samples.

Results

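The cytosolic ribosomal protein genes were described in subcutaneous adipose tissue of 36 pigs. They were taken by symbol, as every gene of the deposited table named RPL or RPS followed by a number, together with RPLP0, RPLP1, RPLP2 and RPSA where measured, and without the 8 RPS6K kinase genes that share the prefix. This gave 27 members of 12253 genes, of which 8320 had a symbol. The list is not complete, since the table used for symbols names 58 ribosomal protein gene IDs and the other IDs were not among the genes analysed here. Of the 27 members, 15 encode proteins of the small subunit and 12 proteins of the large subunit or their paralogs.

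The pigs came from an F2 intercross of Duroc sows and Göttingen Minipig boars and were grouped by a genetic Obesity Index into Low (lean), Mean (intermediate) and High (obese), with 12 pigs each. The lean group held 7 males and 5 females, and the intermediate and obese groups held 6 of each sex. All pigs were slaughtered at a similar weight, so the lean pigs were the oldest, and age and group cannot be told apart. Each pig is a biological replicate, but some pigs of a group were full sibs and the libraries were spread over several sequencing lanes, and neither was assigned to pigs in the sources used here.

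A ribosome consists of ribosomal RNA and, apart from the stalk proteins, equal numbers of each ribosomal protein, and the protein genes are transcribed at high levels in all cell types. The messenger RNAs of these genes begin with a pyrimidine tract, the TOP motif, through which the kinase complex mTORC1 and the RNA-binding protein LARP1 regulate their translation and stability together. A number of members also have near-identical processed copies or a paralog elsewhere in the genome, so their read counts depend on how reads shared with such copies were mapped. No sequence or coordinate of the build used for mapping was at hand, and none is shown.

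Whole reads were recovered from the deposited log2 values, and all levels below are recovered reads divided by the pig's DESeq size factor, called normalized reads. Over the genes of the table this gave 8735838 to 11755925 reads in a pig (median 10496910). Gene lengths were not at hand, so levels were compared between pigs and not between genes. Lean pig 7 stood apart from the other 35 pigs in the member genes, and values without it are given beside many of the results. Pig numbers are names only.

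The 27 members took the highest share of the recovered reads in the lean group. In lean pigs 1.38% of the reads at the lowest, 1.71% at the median and 2.50% at the highest fell on the 27 genes. The corresponding shares were 1.30%, 1.56% and 1.79% for intermediate pigs and 1.41%, 1.48% and 1.70% for obese pigs. The 3 ranges overlapped, and the SD of the share was 0.309 percentage points among lean, 0.120 among intermediate and 0.0891 among obese pigs. Without lean pig 7 the lean median was 1.70%, the highest lean share 2.03% and the lean SD 0.224 percentage points. In bulk tissue, fewer cells of a type and less RNA per cell cannot be told apart.

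A share also depends on the other genes of the library. The 10 genes with most reads took a median of 15.3% of the reads of lean, 18.4% of intermediate and 18.7% of obese pigs. With these 10 genes left out of the denominator, the median share of the members came to 2.09% (lean), 1.90% (intermediate) and 1.81% (obese). The summed normalized reads of the 27 genes, which do not use this denominator, had medians of 171816, 157745 and 155634 in the same order, and the lean median was 168607 without lean pig 7. The lean group was thus highest on each of the 3 scales.

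**Figure D1:**
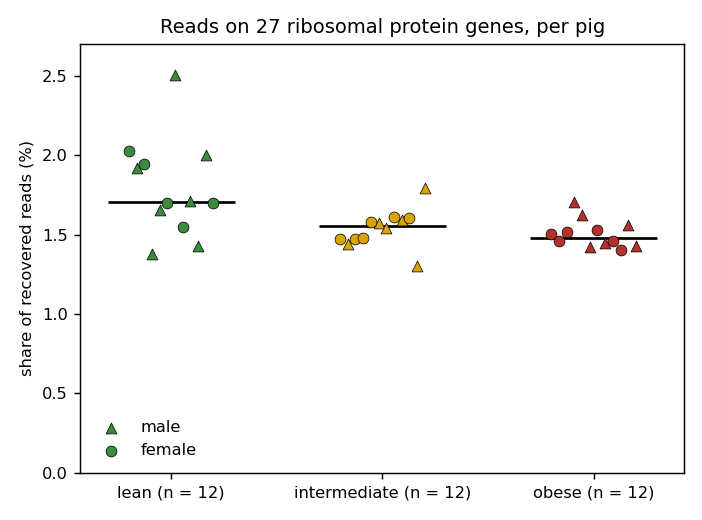
Share of all recovered reads that fell on the 27 ribosomal protein genes, in percent, for each of 36 pigs by group (triangles, males; circles, females; lines, group medians). The lean pigs spread from 1.38% to 2.50%, whereas the obese pigs lie between 1.41% and 1.70%.

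Gene by gene, most members were lower in obese than in lean pigs, but none passed the multiple-testing correction. In limma with group and sex as terms, 23 of 27 members were lower in obese pigs and 4 were higher, and the median log2 difference was -0.15, or -9.70%. Over all 12253 genes, 48.9% were lower and the median was 0.00. At a Benjamini-Hochberg (BH) adjusted p of 0.05, 0 of 27 members were called by limma, and 0.0735% of all genes, 9 in number, were called. At an unadjusted p under 0.05, 14 of 27 members were lower and 0 higher, whereas 7.28% of all genes were lower and 8.38% higher at that level. The 23 lower members all had many reads, and 951 genes of the table had a mean log2 level at or above the lowest of them. Of these 951 genes, 38.1% were lower in obese pigs and 7.99% were lower at an unadjusted p under 0.05.

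The counts depended on the scaling and on single pigs. Divided by the total reads of the pig instead of the size factor, all 27 members were lower in obese pigs. Of all 12253 genes, 4160 were higher on that scale, and the median log2 difference was -0.07, against -0.22 for the members. At an unadjusted p under 0.05 in limma, 17 members and 13.8% of all genes were lower. After BH, 3 members passed in limma, RPS12 and RPLP1 included. Of all genes 10 were called higher and 101 lower, against 2 and 7 with size factors. With single pigs left out, 4 members passed BH without lean pig 2, when 377 of all genes (3.08%) passed, and 2 without lean pig 8, when 258 genes (2.11%) passed. RPS12 alone passed without lean pig 10, lean pig 12 or intermediate pig 11, when 68, 55 and 30 of all genes passed.

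The number of members lower at an unadjusted p under 0.05 also varied. Without lean pig 7 it was 10 of 27, against 6.51% of all genes, the median log2 difference of the members was -0.11, and their smallest BH-adjusted p in limma was 0.0999. The fits to 1 sex also used fewer pigs, 19 males or 17 females. In males alone it was 7 members, against 5.43% of all genes, with a median of -0.18, and in females alone 4 members, against 7.16% of all genes, with a median of -0.09. The fit to lean and obese pigs only, without the intermediate pigs, gave 9 members, against 7.39% of all genes.

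**Figure D2:**
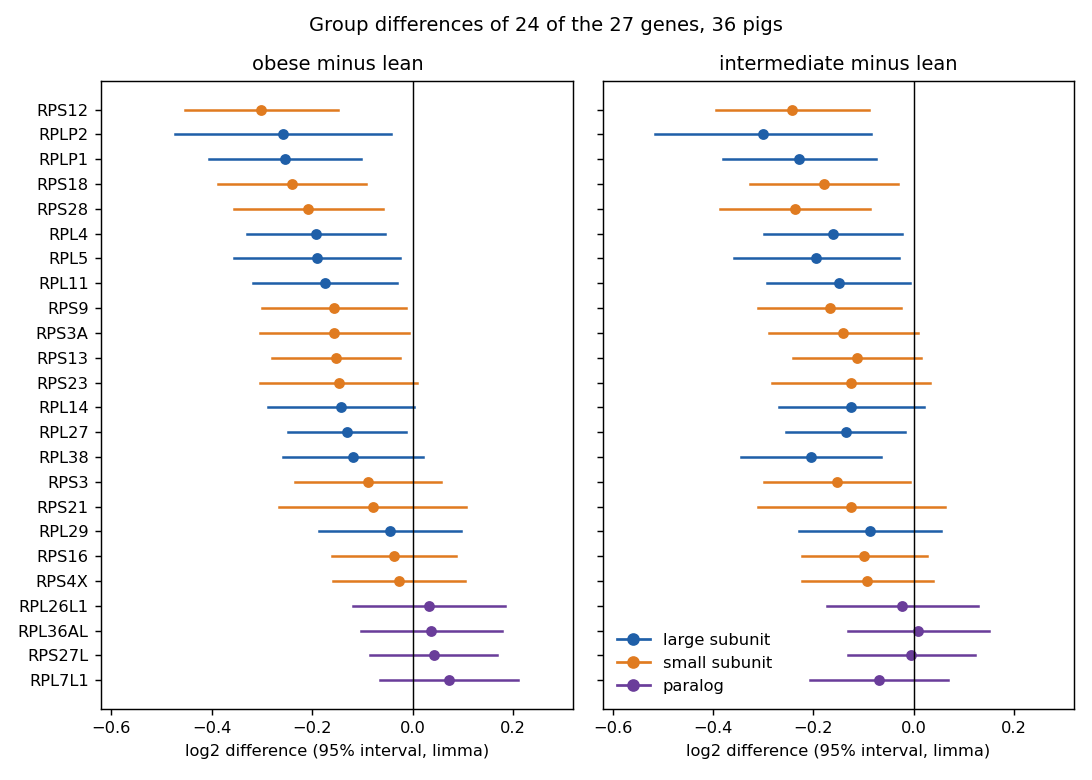
Log2 difference with its 95% interval from limma for 24 of the 27 genes, obese minus lean on the left and intermediate minus lean on the right (blue, large subunit; orange, small subunit; purple, paralogs). The points of 20 genes lie below 0 on both sides, from -0.30 to -0.03 on the left, and the 4 paralogs lie close to 0.

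Among the small subunit genes, the largest difference was that of RPS12 (ENSSSCG00000004177), whose protein sits in the beak of the small subunit. Its normalized reads in lean pigs were 8283 at the lowest, 11044 at the median and 15591 at the highest. In intermediate pigs they were 7139, 9470 and 11315, and in obese pigs 8249, 9012 and 9939. All 12 obese pigs lay below the lean median, although the ranges overlapped. The log2 difference, obese minus lean, was -0.30 (SE 0.08, BH-adjusted p = 0.0604 in limma), or -18.9%. It was -0.37 in males alone, -0.22 in females alone and -0.26 without lean pig 7.

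RPS18 (ENSSSCG00000001502) encodes a protein in the head of the small subunit. It had means of 8081 ± 1285, 7068 ± 921 and 6734 ± 470.5 normalized reads (SD, n = 12 each) in the lean, intermediate and obese group. All 12 obese pigs lay below the lean median. The log2 difference between obese and lean was -0.24, with a BH-adjusted p in limma of 0.0958, and -0.20 without lean pig 7.

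The other small subunit members covered a range down to almost no difference. RPS28, whose protein lies near the exit of the mRNA channel, differed by -13.4% in obese pigs (log2 difference -0.21, BH-adjusted p = 0.150 in limma). RPS9, RPS3A, RPS13 and RPS23, the last of which takes part in decoding, had log2 differences between -0.16 and -0.15. Without lean pig 7 these lay between -0.14 and -0.10. RPS3, which lines the mRNA entry channel, and RPS21 and RPS16 had differences of -0.09, -0.08 and -0.04, and of -0.07, -0.03 and -0.01 without lean pig 7. In RPS21, which had its highest value in lean pig 7, 4 of 12 obese pigs were below the lean median.

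RPS4X (ENSSSCG00000012405), the X-linked copy of the RPS4 gene, differed least among these. It had 12746, 14918 and 16697 normalized reads at the lowest, median and highest in lean pigs, and 12793, 14186 and 17481 in obese pigs. The ranges nearly coincided, and the log2 difference was -0.03 with a 95% interval from -0.16 to 0.10. In males alone the difference was 0.00, and without lean pig 7 it was -0.01.

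Among the large subunit genes, the acidic stalk proteins showed the largest differences. RPLP1 and RPLP2 form the flexible stalk at which elongation factors bind. RPLP1 (ENSSSCG00000004970) had 10226, 12164 and 16308 normalized reads at the lowest, median and highest in lean pigs, 8407, 10645 and 12902 for intermediate and 9295, 10548 and 11735 for obese pigs. All 12 obese pigs were below the lean median, and the log2 difference was -0.25 (SE 0.07, BH-adjusted p = 0.0868 in limma), or -0.22 without lean pig 7.

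RPLP2 (ENSSSCG00000012842) was the most variable of the 27 genes, with an SD of 0.28 over the 36 pigs on the log2 scale. Its mean was 11039 ± 2117 normalized reads among lean, 8957 ± 1783 among intermediate and 9086 ± 901 among obese pigs (SD, n = 12 each). Its log2 difference between obese and lean was about the same as that of RPLP1, at -0.26, but with an SE of 0.11 and a BH-adjusted p of 0.220 in limma. Without lean pig 7 it was -0.23.

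RPL5 and RPL11 form the particle with 5S ribosomal RNA that can bind the p53 regulator MDM2. Their log2 differences between obese and lean were -0.19 and -0.17, with BH-adjusted p-values in limma of 0.240 and 0.209. RPL5 ranged from 9368 to 16116 normalized reads in lean pigs and from 9739 to 13922 in obese pigs, so that the obese range lay within the lean range. RPL4, which reaches into the peptide exit tunnel, differed by -12.5% (log2 difference -0.19, BH-adjusted p = 0.145 in limma). RPL14, RPL27 and RPL38 had differences of -0.14, -0.13 and -0.12, and RPL29 of -0.05. Without lean pig 7 these were -0.10, -0.11, -0.08 and -0.02 in the same order.

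The balance of the subunits differed less between pigs than the summed level. Over the 23 members other than the paralogs described below, the ratio of large subunit to small subunit reads had group medians of 0.767 (lean), 0.742 (intermediate) and 0.741 (obese), and its coefficient of variation over the 36 pigs was 3.82%. The coefficient of variation of the summed normalized reads of the 27 genes was 11.1%. Without lean pig 7 the ratio had 3.87% and the sum 9.47%. Since the 23 genes rose and fell together, as described below, other splits of them may give the same, and none was tried. By subunit and with the paralogs counted, 9 of 12 large subunit members were lower in obese pigs with a median of -0.14. So were 14 of 15 small subunit members, with a median of -0.15. Without the paralogs all 23 members were lower, so the members of either subunit that were not lower were paralogs.

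The 4 members that were higher in obese pigs were all paralogs of a standard ribosomal protein gene, as their symbols show. These are RPL36AL (ENSSSCG00000005006), a paralog of RPL36A, RPL26L1 (ENSSSCG00000016989), a paralog of RPL26, RPS27L (ENSSSCG00000023158), a p53-induced paralog of RPS27, and RPL7L1 (ENSSSCG00000026472), which is related to RPL7. RPL36AL had 436, 586 and 692 normalized reads at the lowest, median and highest in lean pigs and 508, 602 and 758 in obese pigs. The log2 differences of the 4 genes lay between 0.03 and 0.07, with SEs from 0.06 to 0.07 and BH-adjusted p-values in limma from 0.645 to 0.880. Divided by the total reads of the pig, all 4 were lower in obese pigs, with differences from -0.04 to 0.00, while the median over all genes was -0.07 on that scale. The direction of these 4 genes therefore depended on the scaling, and that they were unlike the other 23 was not tested. RPS4X, which the naming rule also lists as a paralog, was counted among the 23. Its difference was -0.03, so not every listed paralog was higher.

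**Figure D3:**
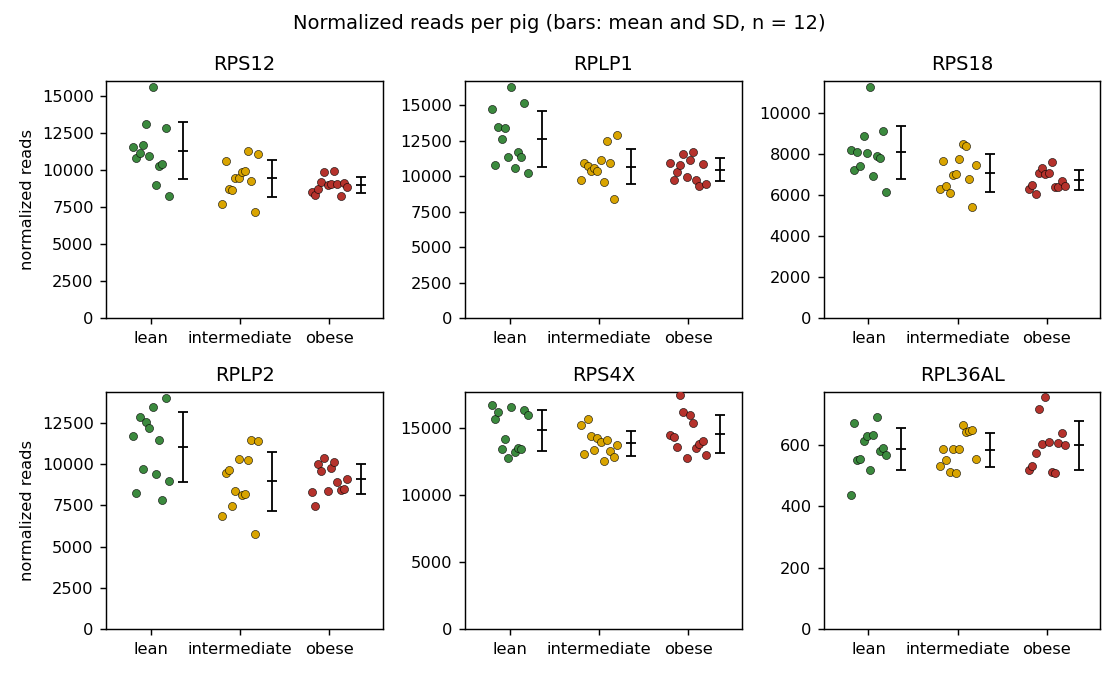
Normalized reads of 6 members in each pig by group, on axes that start at 0, with bars for the mean and SD of 12 pigs. In RPS12, RPLP1, RPS18 and RPLP2 the upper lean pigs stand above the obese pigs, whereas the groups of RPS4X and RPL36AL cover similar ranges.

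In level, the intermediate pigs lay closer to the obese than to the lean pigs. Against lean pigs, 26 of 27 members were lower in intermediate pigs with a median log2 difference of -0.14, while 49.5% of all genes were lower. In limma 0 of 27 members passed a BH-adjusted p of 0.05, as did 0% of all genes, of which 1636 had an unadjusted p under 0.05. At the unadjusted level, 14 of 27 members were lower, against 6.24% of all genes. Among the largest differences were -0.30 in RPLP2, -0.24 in RPS12 and -0.24 in RPS28, with BH-adjusted p-values in limma between 0.239 and 0.248. This count also rested on single pigs, since the number at that level was 9 without lean pig 1, without lean pig 7 or without intermediate pig 11, when 5.70%, 5.16% and 6.10% of all genes were lower at that level. Both comparisons used the same lean pigs.

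Between obese and intermediate pigs the differences were small and of both signs. Of the 27 members, 17 were higher and 10 lower in obese than in intermediate pigs, with a median log2 difference of 0.02 and, for single genes, differences between -0.06 and 0.14. In limma 0 of 27 members passed BH, as did 0% of all genes. At an unadjusted p under 0.05, 1 member, RPL7L1, and 2.54% of all genes were higher. The difference of RPL7L1 was 0.14 with a 95% interval from 0.00 to 0.28. The direction depended on the scaling, since after division by total reads 11 members were higher and 16 lower, with a median of -0.02 (-0.03 over all genes), and 0 members, RPL7L1 included, were higher at an unadjusted p under 0.05. Without intermediate pig 11 the median was -0.0038, with 12 members higher and 15 lower.

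**Figure D4:**
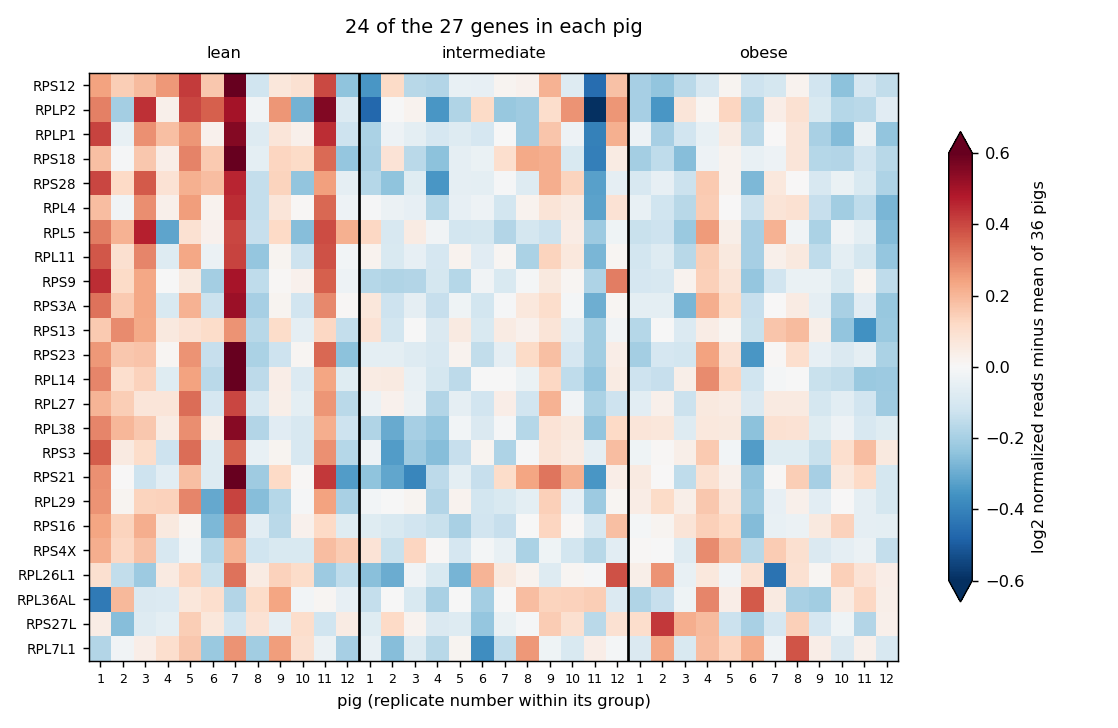
Log2 normalized reads of 24 of the 27 genes, each minus its mean over the 36 pigs, with genes in the order of their difference between obese and lean pigs and pigs by group. Red cells cluster in lean pigs 1, 3, 5, 7 and 11, and blue cells in intermediate pig 11.

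High values were unevenly spread over the lean pigs. Of the 23 members other than the paralogs, 22 had their highest value in a lean pig, and 17 of these in lean pig 7. Lean pig 7 lay above the highest obese pig in 22 of the 23 genes, lean pig 1 in 21, lean pig 11 in 19, lean pig 3 in 17 and lean pig 5 in 16. Of all 12253 genes, these 5 pigs lay above the highest obese pig in 1773 (14.5%), 1542, 1250, 1327 and 1284, in the same order. Lean pigs 8 and 12 did so in 0 of the 23 genes and in 5.17% and 7.10% of all genes. At the lower end, intermediate pig 11 had the lowest value of all pigs in 8 of the 23 genes. The pigs with the highest or lowest value were not counted over all genes, so these counts have no share beside them.

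The lean group also had the widest spread. The median SD of the 23 genes on the log2 scale was 0.22 among lean, 0.12 among intermediate and 0.12 among obese pigs, whereas the median SD of all genes was 0.33, 0.31 and 0.31. In 21 of the 23 genes the lean group had the largest SD of the 3 groups, which was so in 41.0% of all genes. Without lean pig 7 the lean median SD was 0.19, and the lean group had the largest SD in 18 of the 23 genes and in 38.4% of all genes.

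Markers of cell types were read in the same pigs. Lean pig 7 had the lowest sum of 36 pigs over the 4 measured adipocyte markers PLIN1, CIDEC, LIPE and PPARG, with 23031 normalized reads against a lean median of 46218. It had the highest level of the skin keratin KRT10, with 295 normalized reads against a lean median of 112, and stood at rank 34 of 36, counted from the highest, in the sum of the macrophage markers. Of the other lean pigs with high member levels, lean pigs 3, 5 and 11 were also low in the macrophage sum, at ranks 33, 32 and 36, whereas lean pig 1 was at rank 17. Lean pigs 4, 9 and 6 were low in the macrophage sum as well, at ranks 35, 31 and 29. Their summed normalized reads of the 27 genes were 166069, 168607 and 163812, below the lean median. In the adipocyte sum lean pig 1 was low as well, at rank 34, while lean pigs 3, 5 and 11 were at ranks 4, 16 and 22. The part of cell composition in the member levels was not tested.

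Between the groups, the macrophage markers differed in the direction opposite to the members. All 7 measured macrophage markers, namely CD68, CD14, CSF1R, MSR1, C1QA, FCER1G and SPI1, were higher in obese than in lean pigs at an unadjusted p under 0.05, against 8.38% of all genes, with a median log2 difference of 0.84, and 0 of them passed BH in limma. Their summed normalized reads ranged from 1758 to 8869 in lean pigs and from 3866 to 11149 in obese pigs, with medians of 2666 and 6746. Over the 36 pigs each of the 7 markers had a negative r with the mean of the members, between -0.58 and -0.39, which is a description over the same libraries. The r was also negative for 4 of 4 adipocyte and 4 of 5 T or NK cell markers. It was negative for 3 of 4 fibroblast, 2 of 2 blood and 1 of 4 endothelial markers, and positive for KRT10. Group was not removed from these r values. All 4 measured endothelial markers, PECAM1, KDR, TEK and TIE1, were lower in obese pigs, 2 of them at an unadjusted p under 0.05, against 7.28% of all genes, and TIE1 had the largest difference, at -0.50. Of the adipocyte markers, 1 of 4, CIDEC, was higher at that level, at 0.56, where 8.38% of all genes were higher. Of the other lists, 2 of 5 measured T or NK cell markers were higher at that level, while 0 of 4 fibroblast markers, 0 of 2 blood markers and 0 of 1 measured skin marker (KRT10, with a difference of -0.25) reached it. None of the 5 B cell or 7 skeletal muscle markers was among the genes analysed. The part of these cells in the differences of the members was not tested.

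Over the 36 pigs the standard members moved together. The 253 pairs among the 23 genes all had a positive Pearson's r, between 0.24 and 0.93 with a median of 0.71, whereas the median over all pairs of genes in the table was 0.00. Each pair is described over the same 36 libraries, which share size factors and cell composition, and some members may share reads with copies. The first principal component held 71.1% of the variance of the 23 genes. With group and sex removed, the median r was 0.68. Within groups it was 0.81 (lean), 0.56 (intermediate) and 0.58 (obese). Without lean pig 7 all 253 pairs were still positive, with a median r of 0.66 over the other 35 pigs and of 0.76 within the lean group.

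The closest pair was RPS18 and RPS12, with r = 0.93, followed by RPS3A and RPL11 with 0.92, and RPS12 and RPLP1 had 0.90. RPLP1, RPS23 and RPL38 were among the members with the highest median correlations with the other 26 members, from 0.76 to 0.77. RPS4X was the lowest of the 23, at 0.53. The paralogs had lower values, with a median r of 0.05 between one of them and one of the 23 genes, and they differed among themselves. RPL7L1 was positive with all 23 genes, with a median r of 0.24, and RPL26L1 and RPS27L had medians of 0.09 and 0.00 with them. RPL36AL was negative with all 23, with a median of -0.18.

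**Figure D5:**
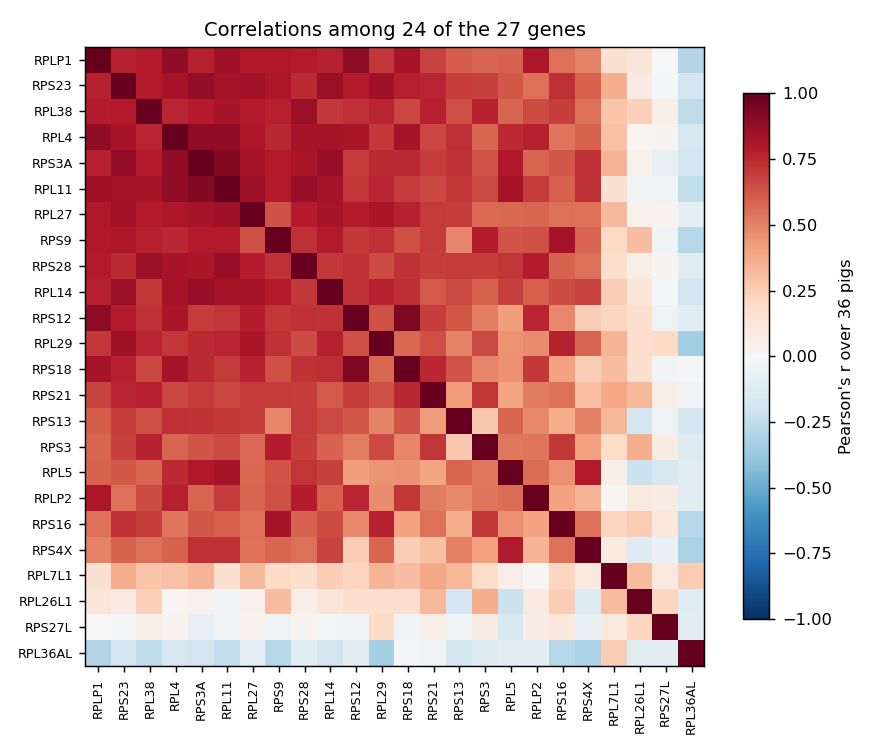
Pearson's r between each pair of 24 of the 27 genes over 36 pigs, with genes ordered by their median r with the others. The block of 20 standard genes is positive throughout, from 0.24 to 0.93, and the 4 paralogs at the lower edge have values with these from -0.34 to 0.39, RPL7L1 being positive and RPL36AL negative with each.

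Outside the members, 14 genes had an r above 0.9 with the mean of the standardized members, and none of the 14 had a symbol. The closest was ENSSSCG00000005595, with r = 0.95 over 36 pigs. Of the genes with a symbol, the closest were EEF1D, a subunit of the exchange factor of translation elongation, with 0.81, and RACK1, a scaffold protein bound to the small subunit, with 0.80. They were followed by SNRPE, BTF3, KARS1, TRA2A, ATXN7L2, EDC4, NDUFB10 and NDUFB7, from 0.73 to 0.69. All 10 were lower in obese than in lean pigs, with log2 differences between -0.18 and -0.09, and 0 of them passed BH in limma. They were chosen for their likeness to the members, so that their direction is no separate observation.

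Other genes whose mRNAs carry a TOP motif were measured for 17 of 25 listed. None was called by limma at BH 0.05, and 10 of 17 were lower in obese pigs with a median log2 difference of -0.03. At an unadjusted p under 0.05, 2 of 17 were lower and 2 higher, against 7.28% and 8.38% of all genes. These had log2 differences of -0.18 in EEF1D, -0.15 in FAU, which encodes a small subunit protein fused to a ubiquitin-like protein, 0.21 in the nuclear import receptor gene IPO7 and 0.36 in the intermediate filament gene VIM. EEF2, which moves the ribosome along the mRNA, had a difference of -0.07, and PABPC1, which binds poly(A) tails, of -0.03.

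A list of regulators of ribosome production and translation held mTORC1 pathway genes, initiation factors and RNA-binding proteins, and also MYC, the RNA polymerase I factor UBTF and the p53 regulator MDM2. Of its 25 genes, 19 were measured and 0 were called by limma at BH 0.05. Their median log2 difference was 0.05, and 6 of 19 were lower in obese pigs. At an unadjusted p under 0.05, the S6 kinase family member RPS6KA1 and the initiation scaffold EIF4G1, 2 of 19, were higher, by 0.73 and 0.27, against 8.38% of all genes. MTOR, its partner RPTOR and LARP1 had differences of 0.10, 0.09 and 0.09. Over the 36 pigs the 19 genes had r values with the mean of the members from -0.62 (LARP1) to 0.50 (EIF4EBP1), with a median of 0.01 and 9 of 19 negative, as a description over the same libraries.

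Males and females were compared in the same fit. In limma 0 of 27 members passed BH between males and females, whereas 2.72% of all genes did. Of the members, 23 were higher in males with a median log2 difference of 0.05, while the median over all genes was 0.00. At an unadjusted p under 0.05, 2 members were higher in males, against 9.56% of all genes. These were RPS12, with 10539 ± 1873 normalized reads in 19 males and 9217 ± 1095 in 17 females (log2 difference 0.16), and RPS18, with a log2 difference of 0.13. After division by total reads 0 members were higher at that level, against 5.87% of all genes, and the median of the members was 0.02 (-0.03 over all genes). On the deposited values 1 member was higher, against 8.01% of all genes. With 1 pig left out the count was 1 to 4. It was 1 without lean pig 7, a male, against 9.50% of all genes, and the median of the members was then 0.03. Without intermediate pig 2 it was 4, against 10.1% of all genes.

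Whether the gap between obese and lean pigs was larger in one sex was tested by an interaction term. By limma, 0 of 27 members passed BH for this term, as did 0% of all genes, and 0 members and 1456 genes had an unadjusted p under 0.05. The median interaction of the members was -0.07 with a median SE of 0.14. On the deposited values it was 0.01 and after division by total reads 0.04, so its sign depended on the scaling. The median of all genes was 0.00 with size factors and 0.09 and 0.11 on these scales. That of the members lay below it on each scale.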

How the data were processed

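Subcutaneous adipose tissue of 36 pigs was measured by poly(A) RNA-Seq. The authors used STAR to map paired-end reads to Sscrofa10.2 and HTSeq for gene counts, then filtered out low genes and normalized with DESeq size factors and voom of limma. The values deposited by the authors are on a log2 scale, as the log2 of reads plus 0.5 over the size factor plus 1, times a constant. The strand setting of the counting is not given in the sources used here.

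Whole reads were recovered from the steps between low values. In the least regular column 99.85% of values lay within 0.1 of a whole read (99.89% in the median column). The deposited division by the size factor plus 1 leaves a part of the depth in the values, so log2((reads + 0.5) / size factor) was used here. limma 3.58.1 in R 4.3.3, with an intensity trend and group and sex as terms, was fitted across all genes to all pigs, with BH correction over 12253 genes at 0.05. The steps were tested on simulated data. Shares, SDs and correlations were computed in Python 3.11.15 with numpy 2.4.6 and pandas 2.3.3. Shares refer to the reads in the table and not to the whole library. Symbols came from a table of gene IDs, and genes without a symbol could not be members.

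Members, gene lists and comparisons were chosen with earlier results of these data known. Genes were named by fixed rules: the largest and smallest differences by group and sex, the highest and lowest correlations and SDs, paralogs, and the 10 genes with a symbol most like the members' mean. A rule on reads per kb was not applied because no length was at hand. Of the 27 members, 3 enter the counts and sums but are not reported singly here. Some members, list genes and pairs beyond the rule were chosen after their values were seen. Alternatives were other scalings, a pseudocount of 1, removal of the lowest 25% of genes, other variance models, no sex term, 1 sex at a time, fewer pigs and other denominators. Spreads, correlations and single genes without lean pig 7, and counting errors, were added after seeing the data.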

Additional observations from a re-analysis of the deposited data

How the results depend on the processing

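With each pig left out in turn, the number of members past BH between obese and lean pigs was 0 to 4. It was 4 (RPS12, RPLP1 and RPS18 included) without lean pig 2, 2 (RPS12 included) without lean pig 8, and 1 (RPS12) without lean pig 10, lean pig 12 or intermediate pig 11. After division by total reads 3 members (RPS12 and RPLP1 included) passed, and under the other 9 alternatives 0 passed. Intermediate against lean, obese against intermediate, male against female and the interaction gave 0 members under every alternative run.

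The alternatives for counts at an unadjusted p under 0.05 were added after seeing the data. Between obese and lean pigs the count was 10 to 17 with 1 pig left out (6.10% to 8.48% of all genes), 9 with only these groups fitted, 7 in males and 4 in females. Between intermediate and lean pigs it was 9 to 16 with 1 pig left out (4.87% to 7.58% of all genes), 5 in males (4.60% of all genes) and 2 in females (3.71%). The median difference between obese and lean pigs was -0.17 to -0.11 with 1 pig left out and negative under the 12 other alternatives. After division by total reads it was -0.22, against -0.07 over all genes. The median between males and females was 0.03 to 0.06 with 1 pig left out and 0.02 after division by total reads.

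The median r of all 27 members, 0.63, was 0.55 to 0.66 with 1 pig left out, 0.75 after division by total reads, 0.48 within intermediate and 0.49 within obese pigs. Without the 10 genes with most reads in the denominator, the median share was 2.09%, 1.90% and 1.81% in lean, intermediate and obese pigs, and without the paralogs and RPS4X it was 1.54%, 1.39% and 1.32% in the same order. Why these values moved was not tested. No paired analysis was possible because the replicate numbers are names given in accession order. The SD within groups on the log2 scale was 5.70 to 17.4 times the counting error of a pig (from the mean reads) in the 23 standard members, and 2.12 to 3.34 times in the paralogs, of which RPL26L1 had the fewest reads, 292 in the mean pig.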
